A study of Mus musculus with 12 samples.

Results

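The addition of insulin to hepatocytes under forskolin and dexamethasone was examined by comparing the FDI group with the FD group. The comparison takes 6 of the 12 libraries of the series, 3 FDI and 3 FD, which were chosen by their treatment labels and not by any measured value. All libraries hold poly-A RNA from wild-type (WT) C57/Bl6J mouse hepatocytes that were isolated with collagenase, plated with serum and then kept for 16 h in medium without serum. FD cells were given forskolin (10 µM), an activator of adenylate cyclase that elevates cAMP, together with the glucocorticoid drug dexamethasone (1 µM), for the last 5 h. FDI cells received the same agents and 100 nM insulin, which was started 1 h ahead of them. Mock cells received none of these agents. FDMn cells received forskolin and dexamethasone after 16 h with 6 µM manganese chloride. Mock and FDMn, with 3 libraries each, serve here for reference. The treatment text of the labels also mentions insulin at 1 nM, whereas the treatment label of each FDI sample gives 100 nM. No group received insulin alone, so a reversal of the forskolin and dexamethasone response and an effect of insulin by itself cannot be told apart. The labels speak of a single mouse and do not say whether replicates were separate preparations, so the p-values reflect only how far these samples differ, which could be technical.

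Insulin signals in hepatocytes through its receptor, the receptor substrates and the kinase AKT. AKT phosphorylates FOXO transcription factors, which then leave the nucleus, and fasting genes that FOXO keeps active, such as those of glucose output, fall. The same pathway activates the kinase mTORC1, which drives protein synthesis, ribosome production and, through the factor ATF4, genes of amino acid supply, and it raises the activity of SREBP factors, which drive lipid synthesis. cAMP and glucocorticoids act in the opposite sense on glucose output, as glucagon and cortisol-like hormones do during fasting.

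Promoter sequences are shown first for 6 genes on which the results below turn, because they hold short motifs tied to FOXO and to ATF4. Promoters were taken from RefSeq (GRCm38.p6) as windows of 300 bases, from 250 before to 50 after each annotated start, and 118 of the 165 genes named by rule had at least 1 window. Each is printed 5′ to 3′ on the strand of its gene and ends where an annotated exon begins. The insulin response element core (CAAAACA, or TGTTTTG on the other strand) stands in capitals in Igfbp1 (chr11:7197537-7197781, + strand) and G6pc (chr11:101367466-101367560, + strand). The FOXO core (GTAAACA) stands in capitals in Txnip (chr3:96557707-96557956, + strand).
Igfbp1: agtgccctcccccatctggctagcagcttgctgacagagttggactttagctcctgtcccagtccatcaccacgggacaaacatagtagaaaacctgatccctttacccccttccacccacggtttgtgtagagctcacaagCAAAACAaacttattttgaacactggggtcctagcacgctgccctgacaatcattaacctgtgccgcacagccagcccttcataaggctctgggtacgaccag
G6pc: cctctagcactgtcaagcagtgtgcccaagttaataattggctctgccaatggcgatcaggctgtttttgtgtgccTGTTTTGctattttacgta
Txnip: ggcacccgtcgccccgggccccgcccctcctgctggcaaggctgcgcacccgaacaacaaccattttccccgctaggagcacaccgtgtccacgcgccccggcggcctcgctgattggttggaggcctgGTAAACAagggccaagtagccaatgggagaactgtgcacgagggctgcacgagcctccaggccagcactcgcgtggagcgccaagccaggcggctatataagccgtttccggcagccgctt
The C/EBP-ATF element, searched as TGATGNAA, stands in capitals as its reverse complement in Chac1 (chr2:119350992-119351228, + strand), Atf3 (chr1:191183341-191183583, − strand) and Fgf21 (chr7:45615491-45615740, − strand). This element was added to the search after the values were seen. The Atf3 window lies within the gene, upstream of an internal start and outside any exon.
Chac1: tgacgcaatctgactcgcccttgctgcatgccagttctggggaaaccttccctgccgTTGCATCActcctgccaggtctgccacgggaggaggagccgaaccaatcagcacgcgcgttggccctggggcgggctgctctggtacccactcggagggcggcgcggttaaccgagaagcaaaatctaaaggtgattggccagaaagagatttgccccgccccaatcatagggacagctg
Atf3: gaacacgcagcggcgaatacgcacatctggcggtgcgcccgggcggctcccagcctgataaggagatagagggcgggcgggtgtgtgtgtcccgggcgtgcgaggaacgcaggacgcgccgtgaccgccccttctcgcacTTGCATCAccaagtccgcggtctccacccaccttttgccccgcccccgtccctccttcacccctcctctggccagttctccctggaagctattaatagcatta
Fgf21: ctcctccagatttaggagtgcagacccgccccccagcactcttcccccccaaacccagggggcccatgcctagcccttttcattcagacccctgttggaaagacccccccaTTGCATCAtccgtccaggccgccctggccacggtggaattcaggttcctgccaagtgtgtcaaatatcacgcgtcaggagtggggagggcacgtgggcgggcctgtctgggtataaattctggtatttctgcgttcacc

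Motifs were searched on both strands, and none of the spelled motifs contains another. Among 8817 tested genes with a promoter that was searched, 3.32% held the FOXO core and 5.42% the insulin response element core. Among the 392 such genes that were lower in FDI, 8.67% held the FOXO core and 11% the insulin response element core. Among the 922 that were higher, the shares were 2.17% and 3.58%. Of the FOXO targets listed below that fell, 12 had a promoter that was searched. The FOXO core was present in 2 of them (Sesn1 and Txnip) and the insulin response element core in 3 (Ccng2, G6pc and Igfbp1). The C/EBP-ATF element was present in 2.76% of the tested genes, 4.56% of the higher and 4.08% of the lower ones, and in 7 of the 22 ATF4 response genes that rose (Asns, Atf3, Chac1, Fgf21, Nupr1, Trib3 and Vldlr). It was also present in 5 of the 6 tRNA synthetase genes that rose and had a promoter that was searched (Aars, Gars, Iars, Tars and Yars). Among named genes that fell, G6pc, Insig2 and Cyp3a11 held it, G6pc at a place beyond its printed stretch. The E-box CACGTG, the element of MYC and related factors, was present in 12.1% of the tested genes, 16.6% of the higher and 13.3% of the lower ones. The CRE (TGACGTCA), the cAMP response element, was present in 3.65% of tested, 3.57% of lower and 4.56% of higher genes, and the SRE of SREBP factors (TCACNCCAC) in 1.46%, 2.30% and 1.52%. These matches describe letters in a window and were not tested.

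Expression was given as TPM, the abundance of a gene's transcripts scaled by their length to a fixed total per library. Over the whole table, 11544 genes reached a TPM of 1 in 3 or more of the 12 libraries and were tested, and 1172 were higher and 502 lower in FDI than in FD by limma (adjusted p of at most 0.05). These are 10.2% and 4.35% of the genes tested, and they set the background against which the counts below are read. Of the called genes 68 rose and 50 fell at least 2-fold on the log2(TPM + 1) scale. The scale of the data matters for the balance of directions: since TPM are shares of a fixed total, scaling can shift all genes together, and the log2 change had a median of 0.04 over all genes. Higher genes made up 70.0% of the calls on TPM, 54.9% after median-of-ratios scaling (847 higher, 696 lower) and 53.5% after quantile normalization (795 higher, 690 lower). The 3 FD values and 3 FDI values did not overlap for 3553 genes, 30.8% of those tested.

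The libraries of the comparison had 10900 to 10983 genes at a TPM of at least 1. FD replicate 3 stood apart from the other FD libraries, with a score of 8.0 on the second principal component against 22.3 and 29.0, and with 22624 TPM of Alb (albumin) against 32589 and 30581. Without it 1438 genes were higher and 683 lower, more than with it. Without FDI replicate 3, 733 genes were higher, and without FDI replicate 1, 321 were lower. Mitochondrially encoded transcripts made up 13.2% to 15.4% of the FD libraries and 10.8% to 13.6% of the FDI libraries. All 15 hepatocyte markers were detected, with a summed 46400 to 56200 TPM in FD and 45400 to 45900 TPM in FDI; 5 of them fell (Fgb, Cyp3a11, Hnf4a, Tat and Cps1) and none rose. Summed Kupffer cell and macrophage markers gave 321 to 387 TPM in FD and 309 to 384 TPM in FDI (12 listed, 0 of 5 tested passed). Nearly all of that sum was Cd68, with means of 349 TPM in FD and 333 TPM in FDI. Clec4f, Adgre1, Cd5l, Vsig4, C1qc, Csf1r and Timd4 did not pass the filter. Endothelial markers summed to 25.2 to 37.1 and 26.3 to 32.1 TPM (11 listed, Cdh5 fell, 1 of 7 tested). Stellate cell and fibroblast markers summed to 7.53 to 12 and 6.56 to 7.48 TPM (11 listed, 0 of 3 tested passed). Of 4 cholangiocyte markers tested (9 listed), 2 rose, Sox9 and Cldn4, and none fell. The list summed to 742 to 813 TPM in FD and 774 to 819 TPM in FDI. Most of that sum was Spp1, with means of 681 TPM in FD and 632 TPM in FDI. Krt19, Krt7, Epcam, Cftr and Muc1 did not pass the filter. No lymphocyte marker passed the filter, and Nkg7 was listed at 0 in all 6 libraries. The part of other cells in the results was not tested, and in such bulk samples fewer cells of a type and less RNA per cell cannot be told apart.

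**Figure D1:**
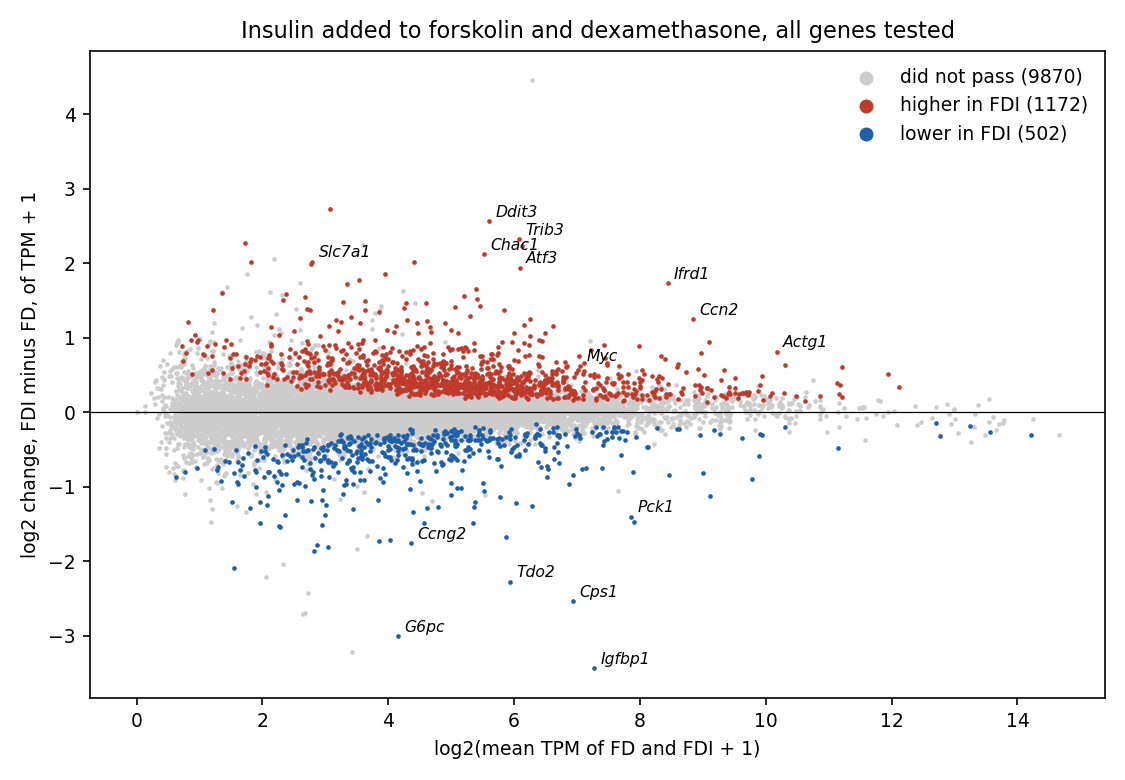
Each point is 1 of the 11544 genes tested, with the log2 of the mean TPM of FD and FDI (plus 1) on the x axis and the log2 change, FDI minus FD, on the y axis; red points are the 1172 genes higher and blue points the 502 genes lower in FDI. Igfbp1, G6pc, Cps1 and Tdo2 lie lowest among the called genes that are labelled, and Ddit3, Trib3 and Chac1 highest.

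Igfbp1 and G6pc, which FOXO factors are known to activate, had the deepest falls among the genes that passed the test, and many other FOXO targets fell with them. Of 29 listed FOXO targets 28 passed the filter, and 13 fell and 3 rose, with a median log2 change of −0.30 against 0.04 for all genes; 12 to 15 fell under the alternatives run. Igfbp1 encodes a secreted protein that binds insulin-like growth factors and is a textbook target of insulin (chromosome 11, 7197782 to 7202546, + strand on GRCm38, protein-coding). It measured 315, 244 and 288 TPM in the FD libraries and 21.7, 24.9 and 28.9 TPM in the FDI libraries. Every FDI value lay below every FD value, and the FDI mean was 11.2-fold lower. The log2 difference, which here and below is FDI minus FD on the log2(TPM + 1) scale with its SE, was −3.44 ± 0.12 (adjusted p = 2.04e-08, limma with Benjamini-Hochberg adjustment). The Mock mean was 26.8 ± 3.61 TPM (SD, n = 3), and the test of FDI against Mock gave adjusted p = 0.595. FDMn cells held 278 ± 7.33 TPM, beside 282 ± 35.5 TPM in FD, and differed from FDI (adjusted p = 2.14e-08).

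G6pc, the glucose-6-phosphatase enzyme that releases glucose from the hepatocyte (chromosome 11, 101367561 to 101377903, + strand), measured 33.3, 26.1 and 33.0 TPM in FD and 3.08, 2.49 and 3.31 TPM in FDI. The groups were far apart, and the FDI mean was 10.4-fold lower (log2 difference −3.002 ± 0.14, adjusted p = 3.67e-07). Mock cells had 0.257 ± 0.179 TPM, so the FDI level stayed above Mock (adjusted p = 2.36e-06), and FDMn cells had 9.06 ± 0.937 TPM, above FDI (adjusted p = 7.22e-05). Pck1, the cytosolic phosphoenolpyruvate carboxykinase that commits carbon to new glucose (chromosome 2, 173153048 to 173159273, + strand), measured 373, 299 and 339 TPM in FD and 120.1, 123 and 138 TPM in FDI. It fell 2.65-fold (log2 difference −1.40 ± 0.10, adjusted p = 4.51e-06), a smaller fall than that of G6pc, and FDI stayed far above Mock (0.343 ± 0.171 TPM, adjusted p = 9.68e-13). Ppargc1a, the coactivator that cAMP raises to drive gluconeogenic genes, measured 23.7, 17.99 and 18.8 TPM in FD and 16.7, 19.3 and 25.2 TPM in FDI. The groups overlapped throughout, and the test did not pass (log2 difference 0.00 ± 0.14, adjusted p = 0.989), although FDI was far above the Mock mean of 0.792 ± 0.0435 TPM (adjusted p = 2.06e-09).

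The rest of the 19 glucose production genes gave a mixed picture. In all 3 fell, G6pc and Pck1 among them, and 5 rose, with a median log2 change of −0.02. The 5 that rose were Pck2, Mdh2, Tpi1, Ldha and Eno1, and apart from Pck2 their log2 changes were 0.17 to 0.31. Pck2, the mitochondrial phosphoenolpyruvate carboxykinase, went from 14.1 ± 1.64 to 25.9 ± 1.79 TPM (log2 difference 0.84 ± 0.11, adjusted p = 0.000296), opposite to its cytosolic counterpart. The small rises depended on the processing: 2 of the 19 genes were called higher after quantile normalization, 3 after median-of-ratios scaling, 1 with the FD and FDI samples alone, and 3 without FD replicate 1, FD replicate 2, FDI replicate 1 or FDI replicate 3.

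Further FOXO targets fell together with Igfbp1 and G6pc. Ccng2, a cyclin G that slows the cell cycle, measured 30.4, 33.1 and 28.8 TPM in FD and 7.72, 8.59 and 8.81 TPM in FDI, a 3.67-fold fall (log2 difference −1.76 ± 0.12, adjusted p = 2.57e-06) to below Mock (13.7 ± 0.374 TPM, adjusted p = 0.0011). Pdk4, the kinase that holds back pyruvate dehydrogenase in fasting, measured 19.3, 20.7 and 16.4 TPM and 6.09, 7.45 and 10.0 TPM. Its fall of 2.40-fold (log2 difference −1.18 ± 0.18, adjusted p = 0.00124) brought it to a level that did not differ detectably from Mock (7.04 ± 1.52 TPM, adjusted p = 0.609). The values of both genes were separate between the groups. Sesn1, a sestrin that restrains mTORC1, went from 12.2 ± 1.09 to 5.19 ± 0.573 TPM (log2 difference −1.09 ± 0.11, adjusted p = 5.78e-05). Txnip, which limits glucose uptake and was named after its values were seen, went from 4.75 ± 0.562 to 1.06 ± 0.0912 TPM (log2 difference −1.48 ± 0.13, adjusted p = 1.96e-05). Angptl4, an inhibitor of lipoprotein lipase, went from 59.1 ± 6.55 to 30.1 ± 3.76 TPM (adjusted p = 0.000225). None of these 3 genes had overlapping FD and FDI values. The largest change in the other direction was that of Gadd45a, a growth arrest and stress gene on the same list, which rose 4.88-fold from 23.4 ± 1.41 to 114 ± 12.8 TPM (log2 difference 2.23 ± 0.11, adjusted p = 3.67e-07), a level that did not differ detectably from Mock (101 ± 15.5 TPM, adjusted p = 0.233).

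**Figure D2:**
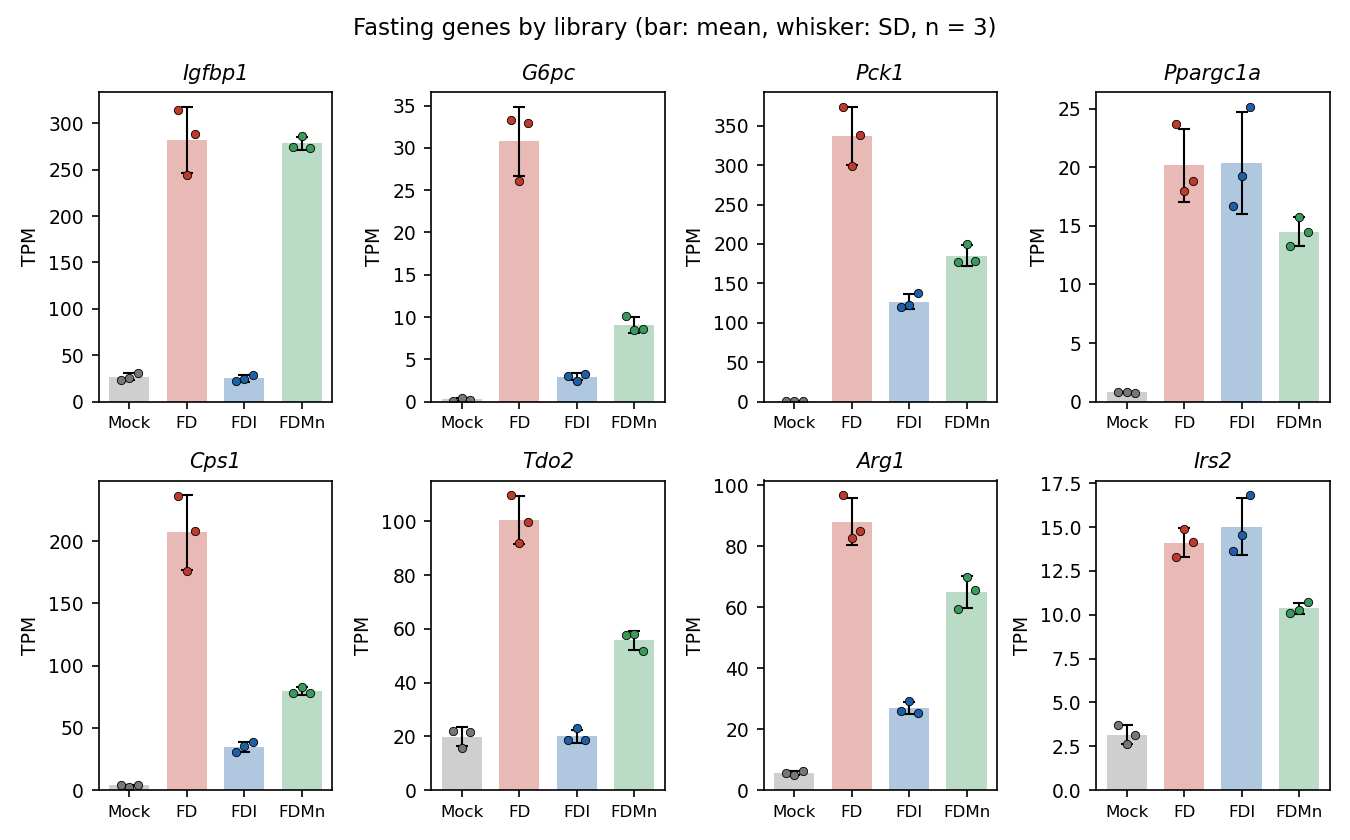
TPM (y axis, linear, from 0) of 8 fasting genes in the 12 libraries, grouped as Mock, FD, FDI and FDMn on the x axis; points are libraries, bars are means and whiskers SD over 3 libraries. The FDI points of Igfbp1, G6pc, Pck1, Cps1, Tdo2 and Arg1 all lie below their FD points, while Ppargc1a and Irs2 overlap between FD and FDI.

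Genes of insulin's own pathway changed in both directions. Of 28 listed genes of insulin signalling 27 were tested, 6 rose and 4 fell (background 10.2% higher and 4.35% lower), with a median log2 change of −0.07. The receptor gene Insr measured 27.4, 25.4 and 25.5 TPM in FD and 21.3, 25.3 and 23.7 TPM in FDI, which did not pass (log2 difference −0.15 ± 0.08, adjusted p = 0.237). Of the receptor substrates, Irs1 fell 2.44-fold from 2.57, 2.74 and 2.90 to 0.911, 1.26 and 1.19 TPM without overlap (log2 difference −0.82 ± 0.14, adjusted p = 0.00239). Irs2, the substrate that fasting raises, measured 13.3, 14.9 and 14.2 TPM and 13.7, 14.5 and 16.8 TPM, an overlapping pair that did not pass (adjusted p = 0.69). Receptor and substrates thus gave 1 called gene of 3 in this comparison. The transcription factor Foxo1 had 22.5 ± 1.09 TPM in FD and 19.4 ± 1.87 TPM in FDI (log2 difference −0.21 ± 0.09, adjusted p = 0.144). Pik3r1, the regulatory subunit of PI3-kinase, rose from 16.5 ± 1.05 to 24.8 ± 1.81 TPM (log2 difference 0.56 ± 0.09, adjusted p = 0.00177), and Rheb, the GTPase that switches on mTORC1, from 60.4 ± 5.99 to 79.3 ± 3.30 TPM (adjusted p = 0.00584). The groups did not overlap for Pik3r1 or Rheb. Trib3, a pseudokinase that binds AKT and is also an ATF4 target, rose 5.18-fold, from 17.96, 24.7 and 22.1 to 114, 94.0 and 127 TPM (log2 difference 2.32 ± 0.20, adjusted p = 1.35e-05). Grb7, an adaptor of receptor tyrosine kinases named among the 12 deepest falls, went from 23.9 ± 1.25 to 6.59 ± 0.418 TPM (log2 difference −1.72 ± 0.10, adjusted p = 8.18e-07).

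In the IGF axis 11 of 15 listed genes were tested, Igfbp1 and Socs2 fell, and none rose. Igf1, the growth factor that Igfbp1 binds, measured 437, 420.4 and 434 TPM in FD and 428, 424 and 437 TPM in FDI, overlapping groups with a log2 change of −0.002 ± 0.04 (adjusted p = 0.979). Socs2, a feedback inhibitor of growth hormone signalling, went from 46.3 ± 3.56 to 37.5 ± 3.06 TPM (log2 difference −0.30 ± 0.08, adjusted p = 0.0266), and the call was lost without FD replicate 1 or FDI replicate 3 and with the FD and FDI samples alone.

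Several enzymes that break down amino acids fell. All 31 listed genes for amino acid breakdown and urea production were tested, 8 fell and 2 rose (background 4.35% lower and 10.2% higher), with a median log2 change of −0.11. Cps1, which starts the urea cycle (chromosome 1, 67123026 to 67231259, + strand), measured 236, 176 and 209 TPM in FD and 30.4, 35.2 and 38.7 TPM in FDI. The fall was 5.95-fold (log2 difference −2.54 ± 0.13, adjusted p = 3.67e-07), and the FDI level stayed above Mock (3.76 ± 0.714 TPM, adjusted p = 5.07e-09) and below FDMn (79.7 ± 2.94 TPM, adjusted p = 8.59e-05). Tdo2, tryptophan dioxygenase (chromosome 3, 81957090 to 81976202, − strand), measured 109.8, 91.9 and 99.7 TPM and 18.6, 22.96 and 18.6 TPM. It fell 5.01-fold (log2 difference −2.27 ± 0.13, adjusted p = 5.95e-07) to a level that did not differ detectably from Mock (19.8 ± 3.51 TPM, adjusted p = 0.907). In both genes the FD and FDI values were far apart. Arg1, the arginase that releases urea, measured 96.8, 82.6 and 85.1 TPM and 26.0, 29.2 and 25.4 TPM, a 3.28-fold fall (log2 difference −1.68 ± 0.10, adjusted p = 8.11e-07). Tat, the tyrosine aminotransferase that glucocorticoids induce, measured 859, 648 and 764 TPM and 326, 341 and 369 TPM, a 2.19-fold fall (log2 difference −1.12 ± 0.11, adjusted p = 3.78e-05), and FDI did not differ detectably from FDMn (374 ± 24.8 TPM, adjusted p = 0.533). The 2 members that rose were Nags, which makes the activator of Cps1, and Cth, which makes cysteine from cystathionine; 1 rose after median-of-ratios scaling, after quantile normalization, with the FD and FDI samples alone and without FD replicate 1, FD replicate 2 or any single FDI replicate. Cth went from 57.7, 58.7 and 62.8 TPM to 138, 126 and 141 TPM (log2 difference 1.17 ± 0.07, adjusted p = 1.42e-06). Glul, glutamine synthetase and a member of the glucocorticoid list below, fell from 48.6, 39.0 and 40.8 to 18.5, 19.3 and 19.9 TPM (adjusted p = 0.000127), with no overlap.

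Targets of the glucocorticoid receptor, through which dexamethasone acts, moved in both directions. Of 22 glucocorticoid receptor targets 7 fell and 4 rose, with a median log2 change of 0.05. Those that fell were Sgk1, Pck1, Lpin1, Tat, Glul, Angptl4 and Klf15, of which Pck1, Angptl4 and Klf15 also stand on the FOXO list. Sgk1, a kinase related to AKT, measured 376, 339.8 and 337 TPM in FD and 111, 126 and 142 TPM in FDI (log2 difference −1.47 ± 0.10, adjusted p = 3.24e-06), still above Mock (10.0 ± 1.55 TPM, adjusted p = 1.44e-10). Lpin1, a phosphatidate phosphatase and coactivator of fasting, fell from 33.7 ± 6.01 to 13.1 ± 0.867 TPM (log2 difference −1.29 ± 0.13, adjusted p = 4.88e-05). Fkbp5, Tsc22d3 and Zbtb16, which are standard glucocorticoid receptor targets and were named after their values were seen, did not pass: Fkbp5 had 65.2 ± 10.5 and 64.3 ± 3.12 TPM, Tsc22d3 67.9 ± 1.42 and 74.2 ± 6.20 TPM, and Zbtb16 40.1 ± 2.69 and 42.3 ± 5.27 TPM in FD and FDI. Mt2, a metallothionein, rose from 1875 ± 211 to 2864 ± 307 TPM (log2 difference 0.61 ± 0.10, adjusted p = 0.00151); reads of metallothionein copies may be divided between them in the counting.

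Among 22 targets of cAMP and CREB, Pck1 fell and 7 rose, with a median log2 change of 0.15. Nr4a1, a nuclear receptor that cAMP induces, rose from 6.54, 6.27 and 5.63 TPM in FD to 14.9, 14.9 and 16.3 TPM in FDI (log2 difference 1.20 ± 0.11, adjusted p = 2.17e-05). Its FDI values were the highest of any group, against 4.30 ± 0.447 TPM in Mock and 4.12 ± 0.535 TPM in FDMn. Slc20a1, a phosphate importer, rose from 16.5 ± 1.42 to 32.3 ± 1.28 TPM (log2 difference 0.93 ± 0.09, adjusted p = 3.12e-05), and Cebpb from 134 ± 4.40 to 188 ± 20.1 TPM (adjusted p = 0.000871). Cebpb also stands on the ATF4 list. The other 14 genes of the cAMP list, Ppargc1a among them, did not pass.

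Nearly all genes listed as ATF4 targets rose. ATF4 is the factor of the integrated stress response and drives genes of serine and asparagine synthesis, amino acid import and stress signalling. All 24 listed genes were tested, 22 rose and none fell, with a median log2 change of 1.02 against 0.04 for all genes and a background of 10.2% higher; 20 to 22 were called under the alternatives run. The 2 that did not pass were Pycr1 and Aldh1l2. Ddit3, which encodes the stress factor CHOP (chromosome 10, 127290774 to 127296288, + strand), measured 12.4, 15.8 and 11.3 TPM in FD and 85.8, 76.3 and 84.4 TPM in FDI. It rose 6.25-fold and had the largest rise of the list on the log2(TPM + 1) scale (log2 difference 2.57 ± 0.17, adjusted p = 2.1e-06), and the FDI level was also above Mock (34.6 ± 10.4 TPM, adjusted p = 9.36e-05) and FDMn (38.6 ± 2.45 TPM, adjusted p = 0.00108). Chac1, an enzyme that degrades glutathione (chromosome 2, 119351229 to 119354381, + strand), measured 15.9, 14.9 and 17.3 TPM and 72.5, 67.4 and 81.1 TPM, a 4.59-fold rise (log2 difference 2.13 ± 0.10, adjusted p = 3.67e-07). Atf3, a stress factor induced by ATF4 (chromosome 1, 191170296 to 191218039, − strand), measured 30.2, 21.8 and 30.3 TPM and 106, 102 and 114 TPM, a 3.92-fold rise (log2 difference 1.94 ± 0.17, adjusted p = 1.37e-05). The FDI values of these 3 genes lay above every FD value, which for Atf3 was required by the rule that named it.

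Fgf21, a hormone of the liver that ATF4 induces (chromosome 7, 45613886 to 45615490, − strand), was listed at 0 in FD replicates 1 and 2 and at 0.362 TPM in FD replicate 3, and it measured 4.002, 3.67 and 5.68 TPM in FDI (log2 difference 2.28 ± 0.20, adjusted p = 1.44e-05). Mock had 0.896 ± 0.261 TPM and FDMn 0.884 ± 0.210 TPM, and the FDI values were the highest of the 12 libraries (adjusted p = 7.31e-05 against Mock and 0.000266 against FDMn). Outside FDI only Mock replicate 2 and FDMn replicate 1 reached a TPM of 1. Fgf21 thus passed the filter, and was tested, only through its FDI values. Its rise is included in the counts of each list that holds it and in the promoter count of the ATF4 list. Psat1 and Mthfd2, enzymes of serine synthesis and of the folate cycle in mitochondria, rose from 57.1 ± 4.33 to 120.3 ± 3.99 TPM (log2 difference 1.06 ± 0.07, adjusted p = 1.42e-06) and from 22.9 ± 1.60 to 63.3 ± 4.98 TPM (log2 difference 1.43 ± 0.10, adjusted p = 2.43e-06). Both enzymes feed serine and folate metabolism, which growing cells need. Sesn2, the stress-induced sestrin, rose from 13.2 ± 0.323 to 29.0 ± 2.19 TPM (log2 difference 1.07 ± 0.08, adjusted p = 4.72e-06), opposite to its relative Sesn1. In the direct test against FDMn, 16 of the 24 genes were higher and none lower in FDI (background 11.9% higher and 5.68% lower). In the separate comparison of FD with Mock, which shares the FD libraries, 6 of the list were higher and 12 lower in FD (background 11.2% higher and 29.9% lower).

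**Figure D3:**
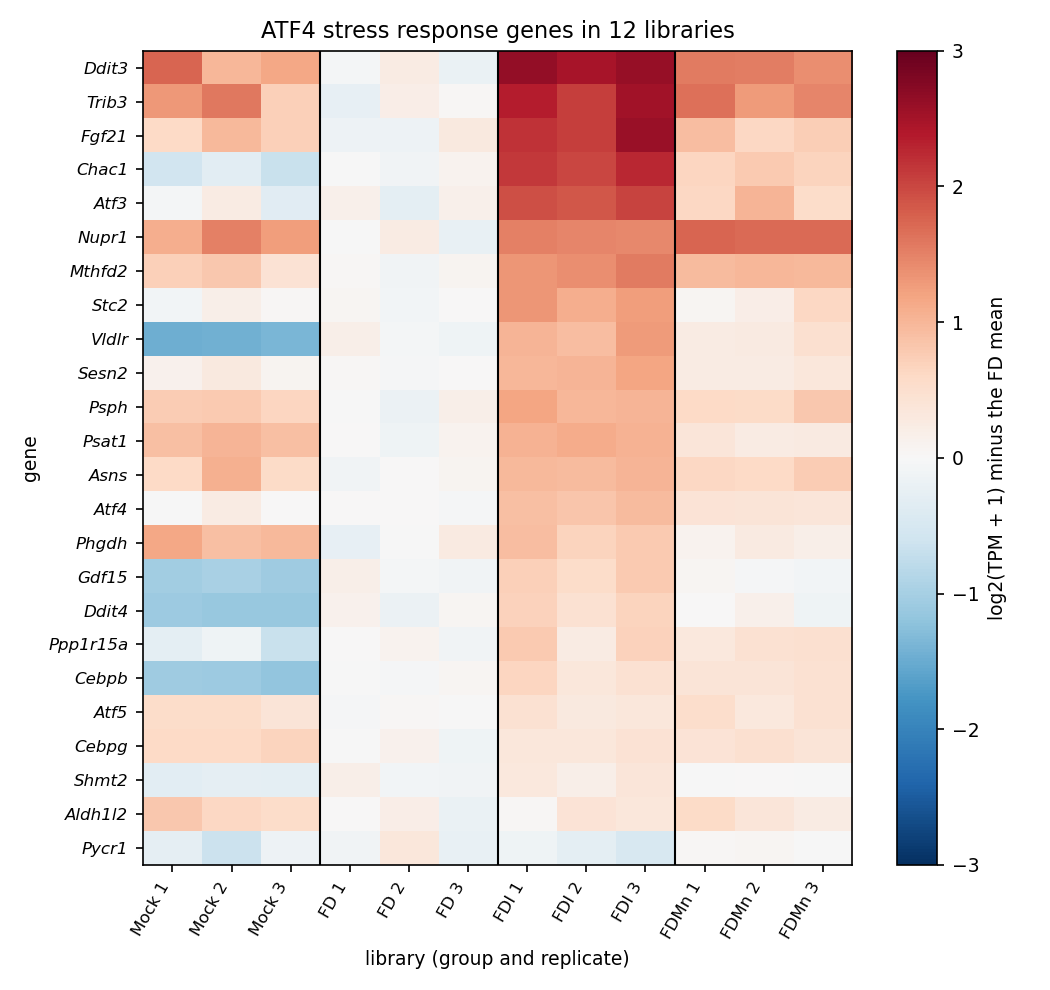
Heat map of the 24 ATF4 stress response genes (rows, ordered by their change) in the 12 libraries (columns, by group and replicate), where colour is log2(TPM + 1) minus the mean of the FD libraries, from −3 (blue) to 3 (red). The 3 FDI columns are red for nearly every gene, palest for Aldh1l2 and Shmt2 and blue for Pycr1, the FDMn columns are paler red for most genes, and the Mock columns are red for some genes and blue for others.

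Chaperones of the endoplasmic reticulum, which belong to the unfolded protein response, gave calls in both directions, the higher ones near the background share. Of 20 chaperone and unfolded protein response genes 2 rose and 3 fell (background 10.2% higher and 4.35% lower), with a median log2 change of −0.11. The number that fell was 6 after median-of-ratios scaling, after quantile normalization and without FD replicate 3, against 1 without FD replicate 1, FD replicate 2 or FDI replicate 3. Hspa5, the chaperone BiP, rose from 454, 439 and 428 to 554, 566 and 560.4 TPM (log2 difference 0.35 ± 0.04, adjusted p = 0.000188), still under Mock (751 ± 15.1 TPM, adjusted p = 7.61e-06). Herpud1, an adaptor of protein degradation in the endoplasmic reticulum, rose from 213 ± 29.4 to 291 ± 19.7 TPM (adjusted p = 0.00612). Hsp90b1 (GRP94) fell from 245 ± 13.6 to 189 ± 4.53 TPM (log2 difference −0.37 ± 0.06, adjusted p = 0.00137). Calr, calreticulin, went from 1081 ± 83.6 to 872 ± 44.6 TPM (adjusted p = 0.0155), a call that was lost without FD replicate 1 or 2 or FDI replicate 3.

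Some amino acid importers and most genes of tRNA charging rose in the same libraries. Of 18 amino acid transporters tested (20 listed), 6 rose and 3 fell, with a median log2 change of 0.12, and 1 fell without FD replicate 1, FDI replicate 1 or FDI replicate 2. Slc7a1, the importer of arginine and lysine, measured 1.59, 1.61 and 1.98 TPM in FD and 9.28, 9.21 and 11.9 TPM in FDI, a 5.87-fold rise (log2 difference 2.02 ± 0.12, adjusted p = 1.07e-06). Slc7a5, the large neutral amino acid importer, measured 6.24, 6.42 and 4.47 TPM and 23.6, 21.9 and 24.0 TPM, a 4.06-fold rise (log2 difference 1.86 ± 0.13, adjusted p = 2.63e-06) to a level that did not differ detectably from Mock (22.1 ± 3.12 TPM, adjusted p = 0.696). Its partner chain Slc3a2 rose from 305 ± 15.3 to 463 ± 6.90 TPM (log2 difference 0.60 ± 0.05, adjusted p = 1.7e-05), and Slc1a4, an importer of alanine and serine, from 4.73 ± 0.268 to 12.3 ± 0.863 TPM (log2 difference 1.22 ± 0.09, adjusted p = 4.72e-06). The groups did not overlap for any of these 4 transporters. Of 20 cytosolic tRNA synthetases 14 rose and none fell, with a median log2 change of 0.39. Yars, the tyrosyl-tRNA synthetase, measured 28.4, 29.1 and 28.3 TPM in FD and 50.8, 50.5 and 54.4 TPM in FDI (log2 difference 0.84 ± 0.07, adjusted p = 1.35e-05), and Rars, Nars and Aars rose by 0.76, 0.65 and 0.61 on the log2 scale. None of these 4 synthetases had overlapping FD and FDI values.

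Genes of ribosome production rose as well. All 30 listed genes of ribosome biogenesis were tested, 22 rose and none fell, with a median log2 change of 0.44 (17 to 22 called under the alternatives). Nop56, a core protein of the particles that modify ribosomal RNA (chromosome 2, 130274430 to 130279313, + strand), measured 106, 107 and 105 TPM in FD and 190.1, 191 and 193 TPM in FDI. The replicates were tight, the rise was 1.80-fold (log2 difference 0.84 ± 0.04, adjusted p = 3.67e-07), and the FDI level matched the Mock mean of 188 ± 5.66 TPM within its spread (adjusted p = 0.705). Myc, the factor that drives ribosome genes (chromosome 15, 61985391 to 61990374, + strand), measured 104, 101 and 105 TPM and 164, 149.8 and 168 TPM, a 1.55-fold rise (log2 difference 0.63 ± 0.06, adjusted p = 5.62e-05), and it stayed below Mock (184 ± 13.2 TPM, adjusted p = 0.0322). Nolc1, a nucleolar chaperone, and Gar1, a protein of the pseudouridine-making particles, rose from 31.8 ± 3.49 to 54.4 ± 1.24 TPM and from 52.9 ± 5.98 to 89.6 ± 6.54 TPM (adjusted p = 6.53e-05 and 0.000133). In the direct test against FDMn 17 of the 30 genes were higher in FDI and none lower (background 11.9% higher and 5.68% lower). In FD against Mock, which shares the FD libraries, 1 was higher and 25 lower (background 11.2% higher and 29.9% lower).

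Transcripts of the ribosomal proteins themselves moved less and depended on the processing. Of 36 cytosolic ribosomal protein genes 10 rose and none fell, with a median log2 change of 0.18. The count was 3 after median-of-ratios scaling and 5 after quantile normalization. It was 19, with 1 that fell, without FD replicate 3, 4 without FD replicate 1, 2 without FD replicate 2, and 1, 5 and 4 without FDI replicates 1, 2 and 3. Rps27 went from 613 ± 86.5 to 836 ± 25.8 TPM (log2 difference 0.46 ± 0.10, adjusted p = 0.00799). Rps3 measured 435, 438 and 713 TPM in FD, where replicate 3 lay near the FDI values of 799.6, 741 and 757 TPM (adjusted p = 0.0198). Ribosomal protein genes have many near-identical pseudogenes, so the division of their reads is uncertain.

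**Figure D4:**
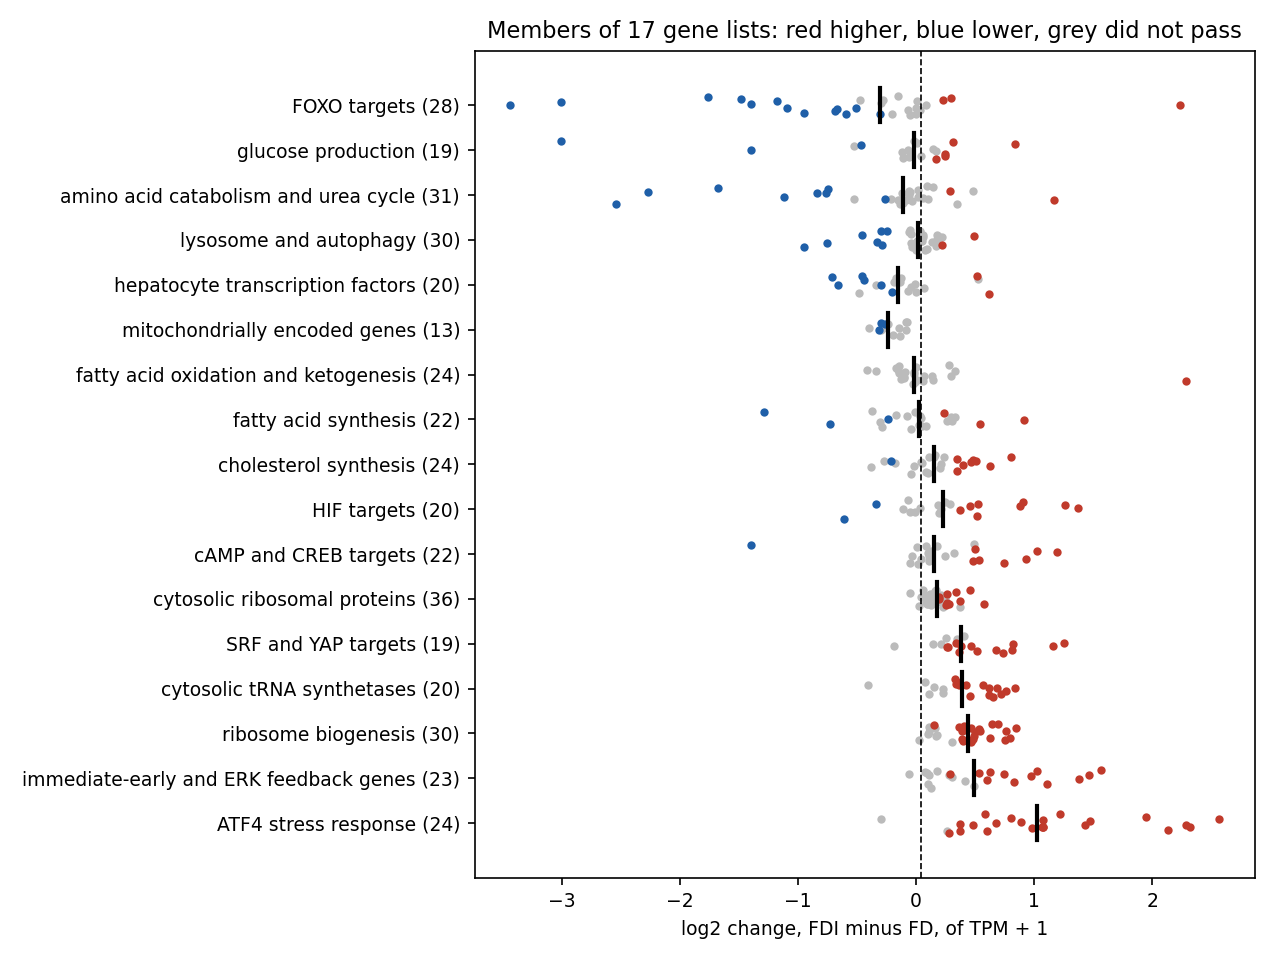
Log2 change, FDI minus FD, of log2(TPM + 1) (x axis) for the tested members of 17 gene lists (y axis, number tested in brackets); red points passed the test as higher, blue as lower, grey did not pass, thick bars are list medians and the dashed line is the median of all genes, 0.04. The ATF4 list, at a median of 1.02, lies farthest to the right and the FOXO list, at −0.30, farthest to the left.

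About as many immediate-early genes rose as did not pass, and most targets of the factors SRF and YAP rose. Immediate-early genes are the rapid nuclear targets of growth factor signalling through the kinase ERK, and SRF and YAP link growth signals and the actin skeleton to transcription. Of 26 listed immediate-early and ERK feedback genes 23 were tested, 12 rose and none fell, with a median log2 change of 0.49. Phlda1, a feedback regulator of growth factor signals, measured 10.2, 13.4 and 12.3 TPM in FD and 37.1, 31.5 and 35.3 TPM in FDI (log2 difference 1.46 ± 0.13, adjusted p = 1.52e-05). Ier2 measured 16.5, 20.5 and 21.2 TPM and 45.6, 38.8 and 43.9 TPM (log2 difference 1.11 ± 0.12, adjusted p = 8.92e-05), and neither gene had overlapping groups. Srf itself measured 52.3, 48.4 and 46.5 TPM and 103, 88.0 and 112 TPM, a 2.06-fold rise (log2 difference 1.02 ± 0.09, adjusted p = 2.08e-05) to above Mock (58.7 ± 4.28 TPM, adjusted p = 4.05e-05). Egr1, a classical immediate-early gene, did not pass, with 15.0, 16.7 and 14.8 TPM in FD and 16.3, 15.9 and 18.7 TPM in FDI (adjusted p = 0.476).

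Of 20 listed SRF and YAP targets 19 were tested, 13 rose and none fell, with a median log2 change of 0.38. Ccn2, a matrix protein and standard YAP target (chromosome 10, 24595442 to 24598683, + strand), measured 258, 289 and 262 TPM in FD and 655, 614 and 664 TPM in FDI. It rose 2.39-fold (log2 difference 1.26 ± 0.07, adjusted p = 4.51e-07) to above Mock (306 ± 23.3 TPM, adjusted p = 1.31e-07) and FDMn (200.2 ± 9.34 TPM, adjusted p = 5.92e-08). Ankrd1, another YAP target, measured 10.5, 9.22 and 9.83 TPM and 23.7, 22.1 and 23.8 TPM (log2 difference 1.16 ± 0.10, adjusted p = 1.83e-05), the FDI level not differing detectably from Mock (adjusted p = 0.344). Every FDI value of both genes lay above the FD values. Actg1, the cytoplasmic gamma-actin, measured 823, 824 and 854 TPM and 1487, 1386 and 1536 TPM (log2 difference 0.82 ± 0.06, adjusted p = 4.51e-06); actin genes have near-identical copies, which makes their division uncertain. Fhl2, a cofactor of actin-linked transcription and among the 12 highest rises, went from 7.47 ± 1.04 to 33.2 ± 3.02 TPM (log2 difference 2.02 ± 0.12, adjusted p = 9.68e-07), and Thbs1, a matrix protein, from 19.4 ± 4.59 to 62.7 ± 8.95 TPM (log2 difference 1.66 ± 0.17, adjusted p = 4.76e-05). Fhl2 and Thbs1 were named by a rule that required a passed test and groups without overlap, so their separation adds nothing. In the direct test against FDMn 17 of the 19 genes were higher in FDI and none lower (background 11.9% higher and 5.68% lower).

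**Figure D5:**
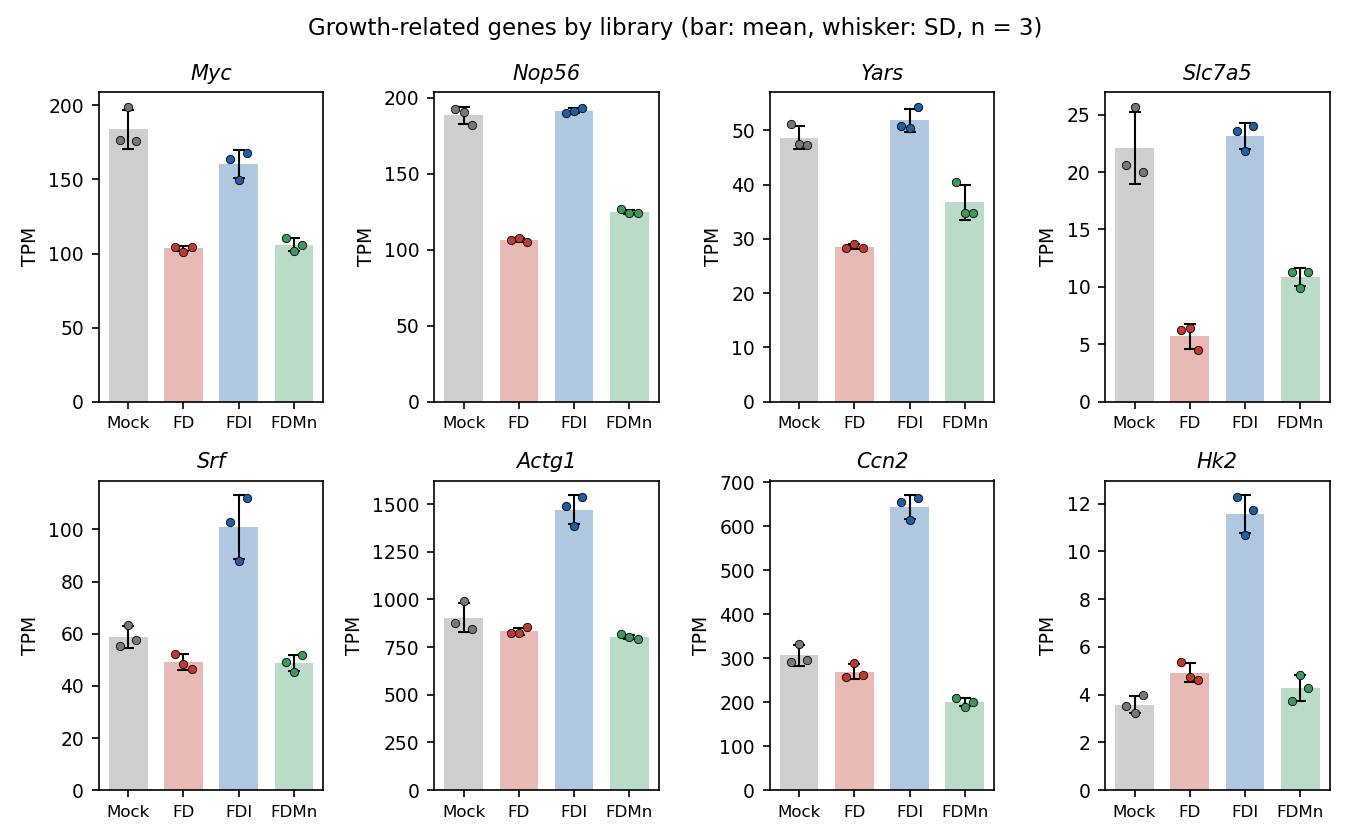
TPM (y axis, linear, from 0) of 8 genes of growth, amino acid supply and glucose use in the 12 libraries, grouped as Mock, FD, FDI and FDMn on the x axis; points are libraries, bars are means and whiskers SD over 3 libraries. For each of Myc, Nop56, Yars, Slc7a5, Srf, Actg1, Ccn2 and Hk2 the 3 FDI points lie above the 3 FD points.

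The glucose carrier Slc2a1 and the hexokinase Hk2, which phosphorylates glucose in the first step of glycolysis, rose. Of 30 glycolysis and glycogen genes 9 rose and 4 fell, with a median log2 change of 0.04, equal to that of all genes; 5 rose after quantile normalization, with the FD and FDI samples alone, and without FD replicate 2, FDI replicate 1 or FDI replicate 3. Hk2, the hexokinase of growing cells, measured 5.37, 4.74 and 4.63 TPM in FD and 12.3, 10.7 and 11.7 TPM in FDI (log2 difference 1.09 ± 0.11, adjusted p = 6.37e-05), and FDMn was lower than FDI (4.28 ± 0.550 TPM, adjusted p = 2.23e-05). The glucose carrier Slc2a1 (GLUT1) measured 125, 115 and 117 TPM and 233, 205 and 233 TPM (log2 difference 0.91 ± 0.07, adjusted p = 4.91e-06). Both genes had FDI values above every FD value. Pkm, the pyruvate kinase of growing cells, rose from 182 ± 6.53 to 241 ± 19.6 TPM (adjusted p = 0.00355).

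Slc2a1 also belongs to 20 tested targets of the hypoxia factor HIF, of which 8 rose and 2 fell, with a median log2 change of 0.23; 1 fell without FD replicate 1, FD replicate 2, FDI replicate 1 or FDI replicate 2. HIF, best known for the response to low oxygen, is also raised by growth signals through mTORC1. Adm, the vessel-widening peptide adrenomedullin, measured 50.9, 43.6 and 37.2 TPM in FD and 104, 90.9 and 124 TPM in FDI (log2 difference 1.26 ± 0.15, adjusted p = 0.000167). Hilpda, a lipid droplet protein that blocks fat breakdown, measured 26.7, 31.5 and 34.8 TPM and 83.9, 73.6 and 86.3 TPM, a 2.62-fold rise (log2 difference 1.37 ± 0.10, adjusted p = 2.95e-06). All FDI values of these genes were above the FD values. Mxi1, a repressor that opposes MYC, fell from 24.2 ± 0.211 to 15.6 ± 1.61 TPM (log2 difference −0.61 ± 0.08, adjusted p = 0.000407).

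Genes of fatty acid synthesis gave calls in both directions, and the cholesterol genes that passed mostly rose. The SREBP1 gene Srebf1, a main insulin target in liver, measured 18.1, 27.4 and 30.8 TPM in FD and 17.3, 23.4 and 20.0 TPM in FDI, overlapping and not passing (log2 difference −0.29 ± 0.23, adjusted p = 0.441). Fasn, fatty acid synthase, measured 23.8, 20.5 and 28.6 TPM and 32.2, 29.2 and 28.5 TPM, also not passing (log2 difference 0.30 ± 0.14, adjusted p = 0.195). Of 22 tested genes of fatty acid synthesis (23 listed) 3 rose and 3 fell (background 10.2% higher and 4.35% lower), with a median log2 change of 0.02. Dgat2, which completes triglycerides, rose from 53.9, 46.0 and 55.0 to 96.1, 92.4 and 105 TPM (log2 difference 0.91 ± 0.07, adjusted p = 9.5e-06), and Insig2, which retains SREBP in the endoplasmic reticulum, fell from 106 ± 8.37 to 63.7 ± 4.92 TPM (log2 difference −0.73 ± 0.11, adjusted p = 0.000859). Of 24 genes of cholesterol synthesis and uptake 8 rose and 1 fell, with a median log2 change of 0.15, and 5 rose without FD replicate 1, FDI replicate 1 or FDI replicate 3. Msmo1, an enzyme of the later steps of cholesterol synthesis, measured 82.1, 91.3 and 95.5 TPM in FD and 137, 133 and 145 TPM in FDI (log2 difference 0.62 ± 0.07, adjusted p = 9.96e-05), and Sqle, the squalene epoxidase, rose from 91.0 ± 0.891 to 116 ± 5.42 TPM (log2 difference 0.34 ± 0.05, adjusted p = 0.00104). Neither gene had overlapping groups.

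Genes of fatty acid oxidation and ketogenesis gave calls below the background share, while lipid droplet proteins and lipases moved in both directions. Of 24 genes of fatty acid oxidation and ketogenesis 1 rose, Fgf21, which stands on this list as a hormone, and none fell (background 10.2% higher and 4.35% lower). Fgf21 passed the filter only through its FDI values. None of the list rose when the filter was TPM of at least 5 in at least 3 samples. After median-of-ratios scaling or quantile normalization 2 fell, 1 fell without FD replicate 2, and without FD replicate 3 the counts were 3 higher and 1 lower. Of 20 lipid droplet proteins and lipases 5 rose and 6 fell, with a median log2 change of −0.01. G0s2, the inhibitor of adipose triglyceride lipase, measured 4.48, 4.01 and 2.74 TPM in FD and 14.7, 15.5 and 13.4 TPM in FDI, a 3.88-fold rise without overlap (log2 difference 1.73 ± 0.15, adjusted p = 1.35e-05). Pnpla2, that lipase itself and a gene named after its values were seen, fell from 63.6 ± 2.54 to 40.8 ± 1.72 TPM (log2 difference −0.63 ± 0.09, adjusted p = 0.000807). Angptl8, an insulin-induced regulator of lipoprotein lipase, rose from 21.2, 23.4 and 17.8 to 71.6, 61.7 and 52.3 TPM (log2 difference 1.52 ± 0.15, adjusted p = 3.68e-05), whereas FDMn held 19.2 ± 0.503 TPM.

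Liver-enriched transcription factors leaned downward. Of 21 listed hepatocyte transcription factors 20 were tested, 6 fell and 2 rose, with a median log2 change of −0.15, and 3 fell when the FD and FDI samples were fitted alone and 4 without FD replicate 1 or any single FDI replicate. Foxa2, which opens chromatin at fasting genes, measured 70.8, 72.8 and 60.1 TPM in FD and 45.7, 39.9 and 37.4 TPM in FDI (log2 difference −0.71 ± 0.09, adjusted p = 0.000296). Hnf4a, the master factor of hepatocyte identity, measured 208, 202 and 206 TPM and 174, 179 and 180.4 TPM (log2 difference −0.21 ± 0.04, adjusted p = 0.00849), a small difference that was lost in the fit of FD and FDI samples alone. Klf6 rose from 126 ± 4.98 to 181 ± 15.3 TPM (adjusted p = 0.000479). Of 29 tested cytochrome P450 genes of families 1 to 4 (38 listed) 2 fell and none rose (4 fell after quantile normalization, and 1 without FDI replicate 1 or FDI replicate 2). Of 19 tested bile acid genes (20 listed) 1 fell, the uptake carrier Slco1a4, from 10.9, 9.20 and 10.5 to 1.70, 3.23 and 2.05 TPM (log2 difference −1.78 ± 0.19, adjusted p = 7.13e-05). Of 13 mitochondrially encoded genes 3 fell and none rose, but the count ranged from 0 to 7 over the alternatives, with 5 after median-of-ratios scaling, 0 after quantile normalization and 0 without FD replicate 2, FDI replicate 1 or FDI replicate 3. It was 5 without FD replicate 1 and 7 without FDI replicate 2.

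Insulin and manganese were compared directly because both were added to the same agents, though for different lengths of time. FDI was higher than FDMn for 1375 genes (11.9%) and lower for 656 (5.68%). Igfbp1 had a lower mean in FDI, at 25.2 ± 3.60 TPM in FDI and 278 ± 7.33 TPM in FDMn. Angptl8, Hk2, Slc2a1, Srf and Ccn2 were higher in FDI than in FDMn (adjusted p = 2.4e-05, 2.23e-05, 3.85e-06, 2.05e-05 and 5.92e-08). For Tat, Dgat2 and Slc3a2 the test of FDI against FDMn did not pass (adjusted p = 0.533, 0.0793 and 0.562). Some markers of other cells also differed between FDI and FDMn. Of 5 Kupffer cell and macrophage markers tested 1 was lower in FDI, Cd68 (333 ± 39.7 TPM in FDI and 794 ± 43.4 TPM in FDMn). The list summed to 309 to 384 TPM in FDI and 766 to 852 TPM in FDMn, nearly all of it Cd68. Of 4 cholangiocyte markers tested Spp1 was lower in FDI (632 ± 19.4 and 1418 ± 97.7 TPM), while Sox9 and Cldn4 were higher. The list summed to 774 to 819 and 1420 to 1610 TPM, most of it Spp1. Of 7 endothelial markers 1 was lower, Cdh5, and of 3 stellate cell markers none passed, with sums of 26.3 to 32.1 and 34.4 to 36.6 TPM and of 6.56 to 7.48 and 8.42 to 8.99 TPM. Their part in the comparison with FDMn was not tested.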

How the data were processed

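RNA sequencing of poly-A RNA gave 12 libraries, of which the 6 of FD and FDI carry the main comparison; samples were grouped by their treatment labels. The authors deposited 1 table of TPM, a length-scaled share of a library, for 36144 gene symbols and 12 samples; per the submitters' processing notes kallisto 0.44.0, GRCm38.p6 and DESeq2 were used, with no role given for DESeq2. Each column sums to 1000000 TPM, so read depth is unknown, no counting interval can be given, and values are shares of a library; strandedness of the counting is not given in the sources used here. All columns were mapped to samples, and 99.4% of symbols matched GENCODE M21, the source of gene coordinates.

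Genes that reached a TPM of 1 in 3 or more of the 12 samples (11544, of which 11076 protein-coding) were tested on log2(TPM + 1) with limma 3.58.1 in R 4.3.3, with 1 term per group, all 12 samples (8 residual degrees of freedom), an intensity trend, two-sided moderated tests and Benjamini-Hochberg adjustment over all genes, with a threshold of 0.05. Log2 changes are FDI minus FD on this scale, given ± SE, which understates changes of low genes; fold changes are ratios of mean TPM; group values are mean ± SD, n = 3. Tables were made with python 3.11.15 and pandas 2.3.3. The fit was tested on simulated data.

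Named genes were 18 insulin-related genes, the 12 highest and 12 lowest log2 changes among called genes with a mean TPM of at least 5 and groups that do not overlap (predicted genes and pseudogenes left out), and up to 4 members of each of 42 lists with the smallest adjusted p; 165 genes resulted, some of which are not reported here. The comparison, the lists and this rule were chosen with earlier results of these data known, so list counts are descriptions. Alternatives were the pseudocount, the filter, median-of-ratios scaling, quantile normalization, the FD and FDI samples alone, a replicate block, the variance model, leaving out each replicate, and, chosen after seeing the data, TPM rescaled without mitochondrially encoded genes. Promoter windows came from RefSeq, with those on chromosome 18 left out.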

Additional observations from a re-analysis of the deposited data

How the results depend on the processing

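Of the 128 named genes that passed the test, 113 passed in each of the 17 alternatives in which they were tested. The other 15 missed the threshold in at least 1, and 0 changed direction. Among those that missed it were Calr, Cxcl16, Cyp3a11, Ftl1, Hnf4a, Ifi35, Isg15, Mx1, Rpl18, Rps3, Socs2, mt-Co1, mt-Cytb and mt-Nd1. Not every gene was tested in each alternative. Fgf21 and Irs1, for instance, were left out by the filter of TPM of at least 5 in at least 3 samples. Counts over all genes moved more: with the FD and FDI samples alone 681 genes were higher and 304 lower, an alternative that uses fewer samples to estimate the spread. Leaving out 1 replicate gave 733 to 1438 higher and 321 to 683 lower genes, with both highest counts without FD replicate 3, and 1351 to 2221 genes that differ between FDI and FDMn, against 2031 with all replicates. With the replicate number as a block 1039 genes were higher, 452 lower and 1829 differed between FDI and FDMn. The numbers do not show a pairing: deviations of same-numbered FD and FDI samples correlated at 0.032, 0.014 and 0.009, and FDI replicate 2 correlated best with FD replicate 3 (0.027). Scaling alone moved direction only for genes near 0 that had not passed: Ppargc1a to −0.043 (median-of-ratios), −0.041 (quantile) and −0.029 (rescaled without mitochondrially encoded genes), and −0.151 to 0.131 when a replicate was left out. Other genes that had not passed also changed sign when a replicate was left out: Igf1 (−0.019 to 0.009), Stab2 (−0.277 to 0.074), Pecam1 (−0.142 to 0.521), Cd68 (−0.163 to 0.004) and C1qa (−0.047 to 0.160); the cause was not tested. Depth is unknown, so the limit for low genes cannot be given.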

Other observations

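Counts for gene groups not described above are read against the background of 10.2% higher and 4.35% lower. With all replicates, the share that rose did not exceed it for the lysosome and autophagy, acute phase, NRF2 and DNA replication genes. Of 30 lysosome and autophagy genes 7 fell and 2 rose, with a median log2 change of 0.02, and 3 or 4 fell without FD replicate 1 or any single FDI replicate. Ulk1, the kinase that starts autophagy, measured 44.9, 35.0 and 43.0 TPM in FD and 19.7, 20.8 and 21.5 TPM in FDI (log2 difference −0.95 ± 0.16, adjusted p = 0.00207). Gabarapl1, a protein of the autophagosome membrane, measured 218, 199 and 211 TPM and 128, 116 and 129 TPM (log2 difference −0.75 ± 0.06, adjusted p = 1.37e-05). The groups of neither gene overlapped. Of 18 tested circadian clock genes (19 listed) 5 rose and 1 fell (2 without FD replicate 3): Per2 rose from 10.8 ± 1.08 to 17.5 ± 0.331 TPM (log2 difference 0.66 ± 0.10, adjusted p = 0.00079), Cry1 from 8.70 ± 0.731 to 14.8 ± 0.765 TPM (log2 difference 0.71 ± 0.10, adjusted p = 0.000611), and the repressor Nr1d2 fell from 13.9 ± 1.24 to 7.58 ± 0.868 TPM (log2 difference −0.80 ± 0.10, adjusted p = 0.00031).

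Among 18 secreted liver factors 6 rose and 1 fell; 3 fell after median-of-ratios scaling, after quantile normalization and without FD replicate 2, and 2 without FD replicate 3 or FDI replicate 3. Inhbe and Inhba, which encode activin chains, rose from 1.59 ± 0.111 to 6.82 ± 0.596 TPM and from 12.3 ± 1.47 to 29.6 ± 3.33 TPM (adjusted p = 3.16e-06 and 3.59e-05). Of 22 tested acute phase genes (23 listed) 3 fell, Fga, Fgb and Crp, and 2 rose, with 1 higher after median-of-ratios scaling and without FD replicate 1, FD replicate 2 or FDI replicate 3, and 5 lower after quantile normalization. The fibrinogen chain Fga went from 247 ± 7.39 to 166 ± 15.4 TPM (log2 difference −0.57 ± 0.09, adjusted p = 0.00144). Of 23 NRF2 targets 3 fell and 2 rose, but 6 rose without FD replicate 3, and 1 rose after quantile normalization and without FD replicate 1, FD replicate 2, FDI replicate 1 or FDI replicate 3. Gclc, which limits glutathione synthesis, went from 1136 ± 49.3 to 761 ± 53.2 TPM, and Osgin1 from 369 ± 36.5 to 637 ± 13.8 TPM (adjusted p = 0.000102 and 0.000392). Of 19 tested genes of DNA replication onset (22 listed) 1 rose, Cdk4 (2 without FD replicate 3), and none fell. Ifrd1, a stress-responsive regulator and among the 12 highest rises, went from 185, 158 and 139 TPM in FD to 549, 499 and 549 TPM in FDI (log2 difference 1.73 ± 0.09, adjusted p = 3.67e-07). The remaining genes among the deepest falls were Sorbs3, Klhl24, Arrdc3 and Fam107a, with FD means of 10.1, 11.8, 21.2 and 6.16 TPM and FDI means of 2.05, 2.66, 5.68 and 1.48 TPM.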
